A study of Rattus norvegicus with 4 samples.

Results

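The ion channel genes described here are the voltage-gated potassium, sodium and calcium channels, the other potassium channel families, the CLC chloride transporters, the TRP channels and Piezo1, with their auxiliary subunits. The rule uses gene symbols and no measured value, and it was set with earlier results of these data known. Of 168 symbols in the rat RefSeq gene table that matched, 155 had a named probe, out of 16581 named genes on the array. The other 13 had none, among them Hvcn1, which encodes the voltage-gated proton channel of phagocytes, and are not described. The symbol rule also took in Trpc4ap, which encodes a TRPC4-associated protein and no channel.

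NR8383 is a macrophage line from rat lung lavage, and total RNA was measured on 1-colour Agilent arrays. All 4 arrays held cells kept for 48 h in flasks and given the amino-functionalized carbon nanotubes NRCWE049 at 1.2 cm2/cm2 for 4 h, as 4 biological replicates according to the series' design text. Arrays of unexposed cells were not analysed here, so the values describe exposed cells and show no effect of the nanotubes. The line is a single cell culture model, and a transcript level is not a current.

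Ion channels let ions cross a membrane down their electrochemical gradient, and the families differ in the ions they pass and the stimuli that open them. Neurons and muscle use voltage-gated sodium and calcium channels to fire, and macrophages, which do not fire, are known mainly for potassium channels that set the membrane potential and cation channels that let calcium in. Chloride-proton exchangers of the CLC family sit in endosomes and lysosomes, the compartments that receive particles a macrophage has taken up.

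Few of the channel genes were detected. A gene was called detected when at least 1 of its probes was well above background, by Agilent's own flag, on all 4 arrays. By this rule 31 of 155 ion channel genes (20.0%) were detected, against 52.5% of all named genes. A further 10 were well above background on 1 to 3 arrays and 114 (73.5%) on none. On at least 1 array, 41 channel genes (26.5%) were well above background, against 58.0% of all named genes. Well above background in replicates 1 to 4 were 36, 35, 35 and 34 channel genes, or 23.2%, 22.6%, 22.6% and 21.9%, against 55.0%, 54.7%, 55.0% and 54.7% of all named genes. Where no probe rose above background, the transcript was below what the probe could measure, which does not show that it was absent. Of the 114 genes, 80 rested on a single probe.

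The share of detected genes was uneven between families. Of the 7 CLC genes, 5 were detected (71.4%), while 1 of 15 inward rectifier genes (6.67%), 1 of 13 sodium channel genes (7.69%) and 1 of 16 auxiliary calcium channel genes (6.25%) were. Between these lay 6 of 39 Kv alpha subunit genes (15.4%), 2 of 13 K2P genes (15.4%), 4 of 19 TRP channel genes (21.1%) and 2 of 9 calcium channel pore genes (22.2%). Of the calcium- or sodium-activated potassium channels with the BK beta subunits, 3 of 10 (30.0%) were detected, and of the Kv auxiliary subunits 4 of 12 (33.3%). If every probe of a gene had to pass, 2 of the 7 CLC genes would count, against 47.7% of all named genes. The calcium- or sodium-activated group would keep its 3 of 10. The largest share of CLC therefore depends on the probe rule. Differences between families were not tested.

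**Figure D1:**
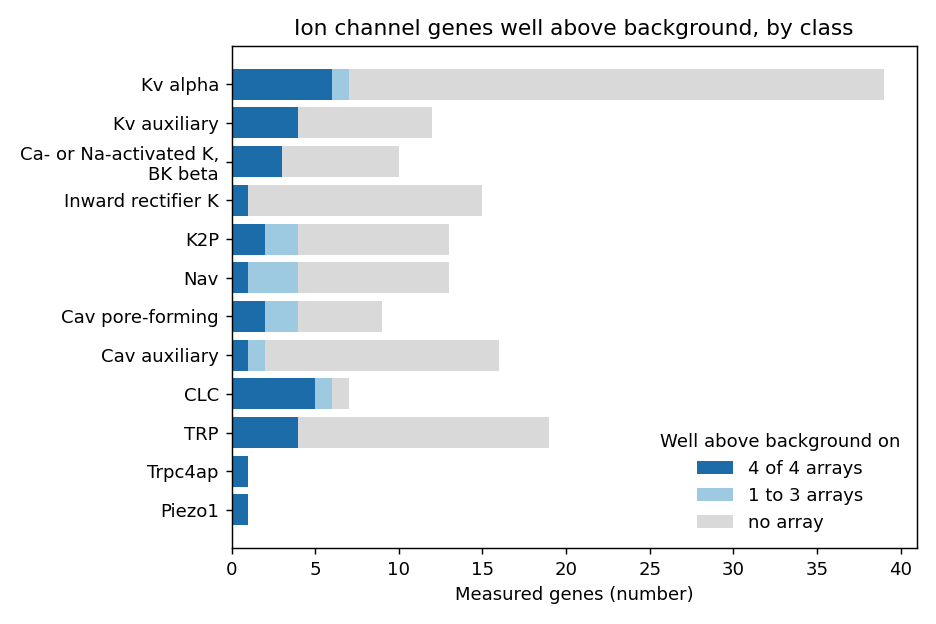
Number of measured genes in each channel class, split by the number of arrays on which the best probe of the gene was well above background. CLC is the class of several genes with the largest detected share when 1 probe is enough (5 of 7). Most genes of the potassium, sodium and calcium channel classes were above background on no array.

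The cells carried the macrophage transcripts that their label calls for. Of 16 measured macrophage markers, 15 were detected, among them Csf1r, Cd68 and Spi1, and Cybb, which encodes the phagocyte oxidase subunit gp91phox, was above background on 1 array. Markers of tissues rich in voltage-gated channels were mostly not detected by the rule used here. Of 12 neuron and glia markers only Mbp was detected, and Syt1 and Gfap were above background on 1 array each. Of 11 muscle and heart markers Tnnt2 and Actc1 were detected. With Agilent's more lenient flag for a positive and significant signal, 3 of the 12 and 7 of the 11 passed on all arrays. The muscle and heart markers were thus mostly weak, and not all below background. The defining neuronal genes Snap25 and Rbfox3 and the heart gene Myh6 were above background on no array. Of 9 lung epithelium markers Foxj1 and Ager were detected, and of 8 T and NK cell markers Cd28 was.

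Each level below is a log2 processed signal from which the array's own 75th percentile, taken over detected probes, was subtracted, so that a level of 0 equals that percentile. They serve to follow one gene between replicates, because probes differ in brightness for equal amounts of RNA. The processed signals themselves show how far a probe stood from background. The highest signal of any channel gene above background on no array was 22.0 intensity units, and the lowest of any detected one was 22.8. Of the 31 detected genes, 7 (22.6%) had signals over 1000 on every array, against 40.1% of all detected named genes. At the other end, 9 (29.0%) stayed under 100 on every array, against 15.5% of all detected named genes.

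Among the cation channels, Trpv2, Trpm7 and Piezo1 gave strong signals. Trpv2, a calcium-permeable TRP channel linked to phagocytosis in mouse macrophages, had levels of 3.82, 3.94, 3.75 and 3.84 in replicates 1 to 4 (3.84 ± 0.08, SD, n = 4). Piezo1, the mechanically activated channel, was at 2.47, 2.55, 2.65 and 2.66 (2.58 ± 0.09, SD, n = 4). Each of these genes spanned 0.19 on the log2 scale, which is less than the median span of the detected channel genes. Trpm7, a channel with a kinase domain that passes magnesium and zinc, was at 2.54, 2.25, 2.19 and 2.14 (2.28 ± 0.18, SD, n = 4), with replicate 1 above the other replicates. Trpm7 rested on 1 of its 2 probes, since the other had signals of 3.96, 7.71, 4.66 and 4.79.

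Trpm2, opened by ADP-ribose and oxidants, and Trpm8, the cold and menthol receptor of sensory neurons, completed the detected TRP channels. Trpm2 was at -3.68, -3.85, -3.59 and -3.49 (-3.65 ± 0.15, SD, n = 4), and replicate 4 was its highest. A second Trpm2 probe had signals of 135, 126, 209 and 209 intensity units, beside 153, 137, 206 and 214 for the first. Replicates 3 and 4 lay above replicates 1 and 2 on both. These signals are not scaled, and the arrays of replicates 3 and 4 were also brighter at the 75th percentile. On the scaled levels of the first probe, replicate 3 was at -3.59 and replicate 1 at -3.68. The remaining Trpm2 probe was above background on 1 array. Trpm8 was at -4.00, -4.23, -4.21 and -4.34 (-4.19 ± 0.14, SD, n = 4), on a single probe.

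The remaining 15 measured TRP channels were above background on no array. Trpv4, an osmotically and mechanically sensitive channel described in alveolar macrophages, had signals of 7.7, 5.37, 13.4 and 7.24 intensity units. Trpm4, a calcium-activated channel that passes sodium and potassium, had 3.82, 4.19, 4.53 and 4.6. Each was measured by 1 probe, and both stayed below the lowest detected channel gene on every array. Trpc4ap, the gene that encodes no channel, was detected at 2.37 ± 0.06 (SD, n = 4), with values from 2.32 to 2.46.

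Of the K2P family, which carries background potassium current, Kcnk6 and Kcnk13 were detected. Kcnk6 encodes TWIK2, which is known in mouse macrophages as a route of potassium efflux upstream of the NLRP3 inflammasome. It was the channel gene with the smallest SD, at -0.67, -0.63, -0.56 and -0.63 (-0.62 ± 0.04, SD, n = 4), on the probe used. Its second probe was also detected, with weaker signals of 152, 124, 152 and 177 intensity units, beside 1240, 1280, 1690 and 1550 for the first. Kcnk13 encodes THIK-1, a potassium channel of microglia, and was at -1.92, -2.26, -1.64 and -1.75 (-1.89 ± 0.27, SD, n = 4). Replicate 2 was its lowest, and its second probe was above background on 1 array. Kcnk12 was above background on 2 arrays and Kcnk5 on 1.

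The calcium-activated potassium channels were represented by Kcnn4, Kcnn1 and Kcnn3. Kcnn4 encodes the intermediate-conductance channel KCa3.1 of lymphocytes and macrophages and was at -3.70, -4.01, -3.94 and -4.05 (-3.92 ± 0.16, SD, n = 4), highest in replicate 1. Its second probe, assigned to another transcript, was detected as well, with signals of 56, 43.8, 53.2 and 42.6. The small-conductance channel genes Kcnn3 and Kcnn1 were at -0.22 ± 0.12 and -4.28 ± 0.18 (SD, n = 4), each on 1 probe. Kcnn1 was at -4.08, -4.20, -4.36 and -4.48 in replicates 1 to 4, highest in replicate 1. Kcnn2, the sodium-activated channels Kcnt1 and Kcnt2 and the BK beta subunits Kcnmb1 to Kcnmb4 were above background on no array.

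The inward rectifiers hold the resting potential near that of potassium, and Kcnj14, which encodes Kir2.4, was the member detected. Its levels were -3.72, -3.51, -3.35 and -3.38 (-3.49 ± 0.17, SD, n = 4), on a single probe. Kcnj2, the Kir2.1 gene that is often studied in macrophages, had signals of 17.7, 9.73, 4.98 and 5.99 intensity units and was above background on no array. All of these signals were below the weakest detected channel gene, and the gene had 1 probe.

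The Kv alpha subunits, which open on depolarization, were detected at low signal. Their median SD of 0.297 was the largest of the classes with at least 2 detected genes. Kcna3 encodes Kv1.3, a channel of T cells and macrophages, and was at -5.00, -4.09, -5.13 and -4.91 (-4.78 ± 0.47, SD, n = 4). Replicate 2 was the high one, and the span on the log2 scale was 1.05 with it and 0.22 without it. Kcna3 had 1 probe with 1 spot per array, so its high value rested on a single spot. Kcna5, which encodes its partner Kv1.5, had signals of 4.22, 4.06, 4.55 and 4.44 intensity units and was not above background on any array. Kcnh1, the ether-a-go-go channel gene, was at -5.81, -6.22, -6.61 and -6.72 (-6.34 ± 0.41, SD, n = 4), and the modifier subunit gene Kcnv2 at -5.42, -6.12, -6.52 and -6.02 (-6.02 ± 0.45, SD, n = 4). Both were highest in replicate 1, and Kcnv2 was also measured by 1 probe with 1 spot per array.

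Kcna6, Kcnh3 and Kcns2 were the other detected Kv alpha genes, at -6.02 ± 0.18, -5.19 ± 0.14 and -6.12 ± 0.17 (SD, n = 4). Kcna6, the Kv1.6 gene, was at -6.12, -5.98, -6.20 and -5.79 and was highest in replicate 4. Kcnh3 was highest in replicate 1 at -4.99, and its second probe was not detected. Kcns2, which encodes a modifier subunit that forms no channel alone, was at -5.90, -6.23, -6.06 and -6.28. Kcnh6 was above background on 2 arrays. Of the 6 detected Kv alpha genes, 4 (66.7%) were highest in replicate 1, against 34.6% of all detected named genes. Lowest in replicate 3 were 4 (66.7%), against 20.4% of all detected named genes. The signal at the 75th percentile of the arrays also differed, at 1970, 1980, 2493 and 2402.5 intensity units in replicates 1 to 4. Its part in the order of these weak Kv alpha genes was not tested.

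**Figure D2:**
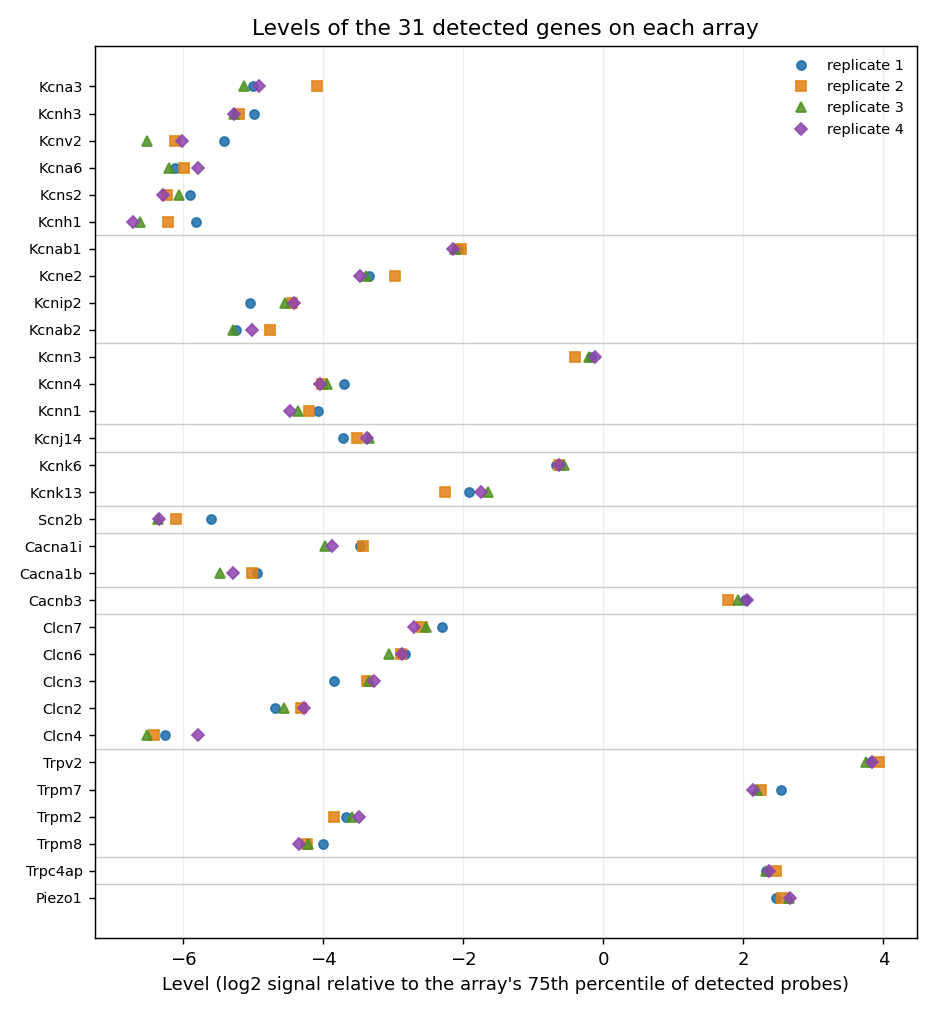
Level of each of the 31 detected genes on each array, in log2 units relative to the 75th percentile of detected probes, with 1 symbol per replicate and lines between the classes. Kcnk6, Kcnab1 and Trpc4ap show the closest replicates, while Kcna3 stands out in replicate 2 and Kcnv2 and Kcnh1 spread widely at low levels.

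Partners of the Kv channels were detected in a larger share than the alpha subunits. Kcnab1 and Kcnab2 encode cytosolic beta subunits of the Kv1 channels, and were at -2.09 ± 0.05 and -5.07 ± 0.25 (SD, n = 4). Kcnab2 was highest in replicate 2, at -4.76 against -5.24, -5.29 and -5.01 in replicates 1, 3 and 4. Kcne2, a small membrane subunit gene, was at -3.34, -2.97, -3.39 and -3.47 (-3.29 ± 0.22, SD, n = 4). Its second probe was detected, with weaker signals of 50.4, 36.9, 48.9 and 39.1 intensity units, beside 194, 253, 237 and 217 for the first. In replicate 2 the signal of the second probe was its lowest and that of the first its highest.

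Kcnip2 encodes KChIP2, a calcium sensor that binds Kv4 channels, none of which was detected. Its levels were -5.05, -4.44, -4.54 and -4.41 (-4.61 ± 0.30, SD, n = 4), so that replicate 1 was low. Its probe was printed 10 times on each array at separate positions, and 10 of 10 spots were lower in replicate 1 than the median of the same spot on the other arrays, by -0.39 to -0.91. The spots of 1 array differed by an SD of 0.08 to 0.18. The low value was therefore not that of a single spot. The second Kcnip2 probe was above background on no array.

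Scn2b, which encodes the beta-2 subunit of sodium channels, was the detected gene of its family, at -5.60, -6.10, -6.36 and -6.35 (-6.10 ± 0.36, SD, n = 4). Its probe was also printed 10 times. In replicate 1, 9 of 9 usable spots were higher than the median of the same spot on the other arrays, by 0.11 to 1.06. The spots of 1 array differed by an SD of 0.21 to 0.50, more than those of Kcnip2, and signals were between 28.9 and 40.7 intensity units. With outlier flags ignored, the span between replicates was 0.43 in place of 0.76. The second Scn2b probe, assigned to another transcript, had signals of 8.82, 7.36, 5.74 and 4.65 intensity units and was above background on no array. None of the sodium channel pore genes was detected on all arrays. Scn4a was above background on 3 arrays, and Scn1a and Scn8a on 1.

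Piezo1 also had a probe with 10 spots, and its differences were smaller. Of 9 usable spots, 9 were lower in replicate 1 than the median of the same spot on the other arrays, by -0.02 to -0.33. In replicate 3, 9 of 9 were higher than the median of the others, by 0.06 to 0.15. In replicate 4, 8 of 9 were higher, and the median deviation was 0.14, against 0.09 in replicate 3.

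**Figure D3:**
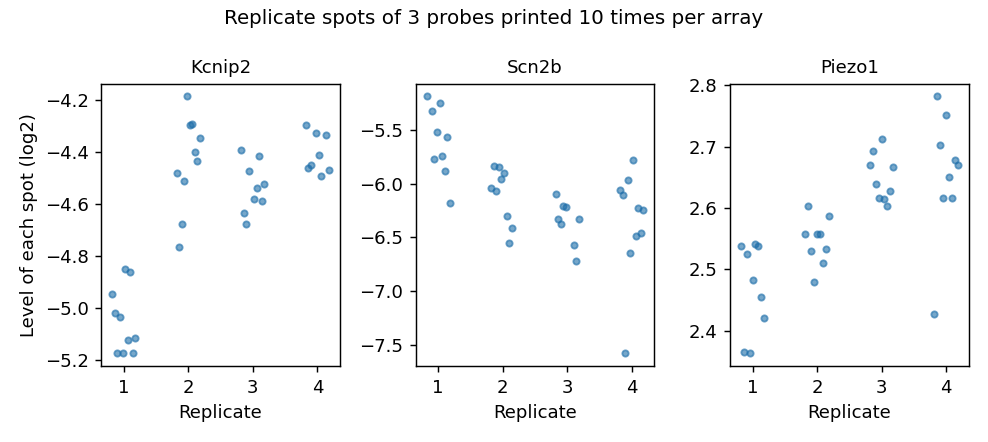
Level of each usable spot of the Kcnip2, Scn2b and Piezo1 probes, each printed 10 times per array, by replicate, in log2 units with a separate axis for each gene. All spots of Kcnip2 in replicate 1 lie in its lower range, and the Scn2b spots scatter more than those of the other genes.

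Calcium channel genes were detected for 2 pore subunits and 1 auxiliary subunit. Cacna1i, a T-type channel gene, was at -3.47, -3.43, -3.97 and -3.87 (-3.68 ± 0.27, SD, n = 4), and Cacna1b, the N-type channel gene of nerve endings, at -4.94, -5.02, -5.47 and -5.29 (-5.18 ± 0.25, SD, n = 4). In both, replicates 1 and 2 lay above replicates 3 and 4. Both probes of Cacna1i and 1 of 2 probes of Cacna1b were detected. On the scale of processed signals the difference was small, at 64, 61.2, 56.1 and 61.5 intensity units for Cacna1b.

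Cacnb3 encodes the cytosolic beta-3 subunit and gave a strong signal, at 2.02, 1.78, 1.93 and 2.05 (1.95 ± 0.12, SD, n = 4). The other 15 auxiliary subunit genes, of the alpha2delta, beta and gamma groups, were not detected, and Cacnb4 was above background on 1 array. Cacna1a and Cacna1h were also above background on 1 array each. Cacna1h had a signal of 139 intensity units in replicate 4, against 4.55, 7.84 and 4.87 in replicates 1 to 3, on a single probe.

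The CLC family was detected except for Clcn1, the chloride channel gene of skeletal muscle, which was above background on no array, and Clcn5, which was on 3. Clcn7 encodes the lysosomal chloride-proton exchanger and was at -2.30, -2.59, -2.53 and -2.70 (-2.53 ± 0.17, SD, n = 4). Ostm1, which encodes its beta subunit, was also detected at -1.14 ± 0.17 (SD, n = 4). The exchanger genes of endosomes followed. Clcn3 was at -3.85, -3.38, -3.34 and -3.28 (-3.46 ± 0.26, SD, n = 4), lower in replicate 1 than in the others, and Clcn6, of late endosomes, at -2.91 ± 0.10 (SD, n = 4).

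Clcn2, a plasma membrane chloride channel gene, was at -4.69, -4.32, -4.56 and -4.27 (-4.46 ± 0.20, SD, n = 4). Its spot in replicate 1 was -0.37 from the median of the other arrays, while the 49 detected spots around it, up to 5 rows or columns away, deviated there by -0.54 at the median. The part of this area of the array in the value was not tested. Clcn4 was at -6.26, -6.41, -6.51 and -5.79 (-6.24 ± 0.32, SD, n = 4), highest in replicate 4. Clcn5, the endosomal exchanger gene of kidney proximal tubule, had signals of 11.5 in replicate 1 and 30.5, 35.9 and 35.8 intensity units in replicates 2 to 4. It would count as detected without replicate 1. Clcn2, Clcn4 and Clcn6 each had a second probe that was not detected on all arrays.

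Probes of one gene often disagreed. Of the 31 detected genes, 14 had several probes, and 10 of these (71.4%) had a probe that was not detected, against 33.4% of the 2402 detected named genes with several probes. In Cacna1i, Kcne2, Kcnk6 and Kcnn4 all probes were detected. The 10 genes with a probe that was not detected were Cacna1b, Clcn2, Clcn4, Clcn6, Kcnh3, Kcnip2, Kcnk13, Scn2b, Trpm2 and Trpm7. If every probe of a gene had to pass, 21 channel genes (13.5%) would count as detected, against 47.7% of all named genes.

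**Figure D4:**
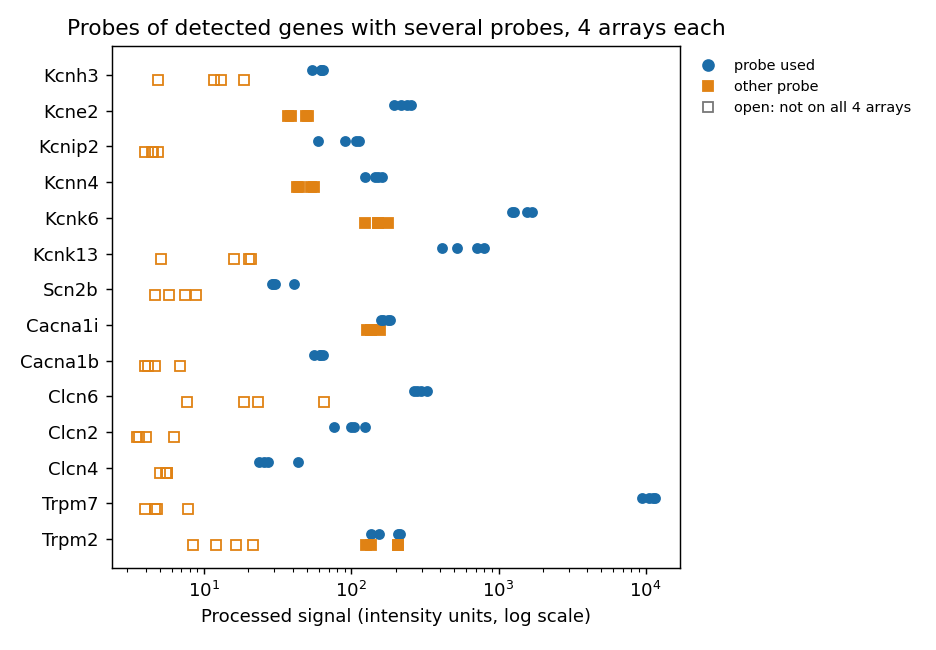
Processed signal on a log axis of every probe of the 14 detected genes with several probes, 4 arrays each; the probe used is drawn as a circle, other probes as squares, and probes that were not detected on all 4 arrays are open. The Trpm7 probes lie farthest apart, and both Cacna1i probes lie close together.

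A more lenient definition brought in more channel genes without closing the gap. With Agilent's flag for a positive and significant signal, 60 channel genes (38.7%) passed on all arrays, against 61.7% of named genes. With a threshold at the 95th percentile of the negative control spots, 58 (37.4%) passed, against 61.5%. All 31 genes of the stricter rule were among them in both cases. Well above background on at least 3 arrays were 33 channel genes (21.3%), against 53.9% of named genes, and on at least 1 array 41 (26.5%), against 58.0%. With outlier flags ignored the count stayed at 31, against 52.6% of named genes. Trpv4, Clcn5, Kcnq1, Scn4a and Scn8a were among the genes gained under both rules, and Kcna5, Kcnj2 and Trpm4 were not.

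**Figure D5:**
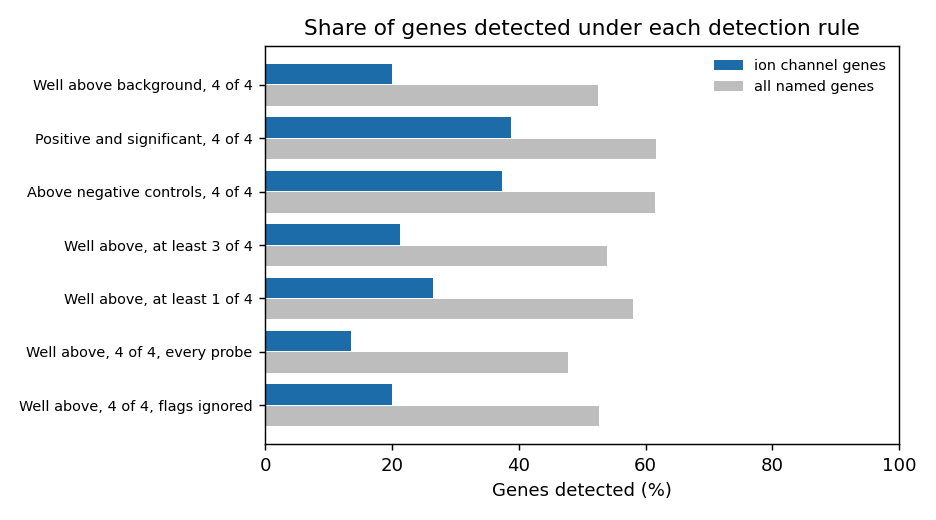
Share of ion channel genes (blue) and of all named genes (grey) detected under 7 detection rules, in percent. The channel genes lie below all named genes under each of these rules, from 13.5% to 38.7% against 47.7% to 61.7%.

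The spread of the detected channel genes between replicates was set beside that of all detected named genes, with no test of the difference. Their median SD was 0.179, against 0.151 for the 8713 detected named genes, or 0.136 against 0.130 with another background correction (normexp), and their median ratio of highest to lowest replicate was 1.32, against 1.26. The median signal of the channel genes was also lower, at 171 against 698 intensity units, and its part in the spread was not tested. Kcna3 and Kcnv2, each measured by 1 spot per array, spanned more than 2-fold. That makes 2 of 31 genes (6.45%) against 2.66% of detected named genes. This count was 1 without replicate 1, 1 without replicate 2, 0 without replicate 3 and 0 with normexp, where 100, 128, 179 and 52 of all detected named genes spanned as much, against 232 with all replicates.

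The replicates took unequal shares of the highest and lowest values. Replicate 1 was highest for 12 genes and lowest for 7, replicate 2 for 7 and 4, replicate 3 for 3 and 11, and replicate 4 for 9 and 9. Replicate 3 was thus highest for 9.68% and lowest for 35.5% of the 31 genes, against 15.9% and 20.4% of all detected named genes. Replicates 1, 2 and 4 were highest for 38.7%, 22.6% and 29.0%, against 34.6%, 24.8% and 24.7% of all detected named genes. They were lowest for 22.6%, 12.9% and 29.0%, against 28.5%, 27.4% and 23.7%. The shares were thus unequal among all detected named genes too. The median deviation of the 31 genes from their own means was 0.02, 0.00, -0.08 and -0.01 in replicates 1 to 4, against 0.02, -0.01, -0.01 and 0.01 for all detected named genes. The classes did not share an order. The Kv alpha genes were at 0.21 in replicate 1 and -0.23 in replicate 3, whereas the K2P genes were at -0.03 and 0.16.

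Channel genes outside the symbol rule were looked at for context. Against the 20.0% detected among the genes of the symbol rule, 31 of 50 measured genes (62.0%) were detected in a list of 57 other channel and channel-regulator genes, many of them listed because macrophages or organelles are known to use them, beside 52.5% of all named genes. The difference was not tested. The list held Kcnma1, the BK channel gene that the symbol pattern misses, at -2.62 ± 0.13 (SD, n = 4), on 1 of its 2 probes. The store-operated calcium entry genes Orai1, Orai2, Orai3, Stim1 and Stim2 were all detected, with Orai1 at -0.75 ± 0.13 (SD, n = 4). So were the 5 volume-regulated anion channel genes Lrrc8a to Lrrc8e, the lysosomal channel genes Mcoln1, Mcoln2, Mcoln3, Tpcn1 and Tmem175, and the mitochondrial genes Vdac1, Vdac2, Vdac3 and Mcu.

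Of the ATP-gated P2X receptors, P2rx4 was detected at -3.31 ± 0.20 (SD, n = 4). P2rx3 was detected on 1 of its 3 probes, with weak signals of 27.7, 28.5, 30.6 and 27.8 intensity units. P2rx7, the ATP receptor known for potassium efflux upstream of the inflammasome, was measured by 1 probe and was above background on no array. The epithelial chloride channel gene Cftr and the calcium-release channel gene Ryr2 were likewise above background on no array.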

How the data were processed

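Total RNA of 4 samples of exposed NR8383 cells was measured on 4 arrays. The deposited intensity of each spot is the processed signal of Agilent Feature Extraction 11.0.1.1, background-corrected within the array, per the file headers and the submitters' processing notes. The sources used here do not state whether the authors normalized between arrays. The arrays share 1 slide and scan per the file headers, so position and replicate cannot be told apart.

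Outlier spots (nonuniform or population flags) and control spots were dropped, spots of a probe were averaged as log2 values, and a probe was above background where the flag held for most spots. Probes detected on all arrays (39.3% of 45598) set the scaling percentile. No spot was saturated. RefSeq accessions were matched without versions to the GRCr8 gene table, a later build than the one the headers name, and coordinates are left out; 21109 probes were named and the others stayed unnamed. A gene's level came from its brightest probe, detected ones first.

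With 1 group, no comparison between groups was possible, and the 1 test run was Dixon's ratio for a deviating replicate, in the closing section. The number of arrays limits the precision. The named genes are all detected members, a list of channels known from macrophages, and members above background on 1 to 3 arrays. The members and lists were chosen with earlier results of these data known. Further genes named complete a short list or are examples chosen after their values were seen. Counts of detected genes, levels and spans between replicates were recomputed with other detection rules, scalings, background correction (limma 3.58.1 in R 4.3.3, offset 50), probe rules and leaving out each replicate; values of single spots and Dixon's ratio were not. Python 3.11.15, pandas 2.3.3 and matplotlib 3.10.9 were used.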

Additional observations from a re-analysis of the deposited data

Results flagged for a closer look

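Dixon's ratio, the gap between an extreme replicate and its nearest neighbour divided by the whole range, exceeded its 95% critical value for 4 of 50 sets of 4 values. Chance gives about 1 in 20, but that rate cannot be read against this count. All 4 were above background on 1 to 3 arrays only, with signals close to background. Genes of this kind were included because their replicates differed at the background flag, which favours a large ratio. The ratios are therefore no evidence of a deviating replicate. Cacnb4, Scn1a and Scn8a were high on the array where they passed the background flag, and Clcn5 was low on the array where it did not pass. Cacnb4 was high in replicate 3 (ratio 0.9395), with a signal of 25.9 against 4.15, 4.6 and 5.29 intensity units in replicates 1, 2 and 4. Clcn5 was low in replicate 1 (ratio 0.9305), at a level of -7.42 against -6.02, -6.12 and -6.07. Scn1a was high in replicate 2 (ratio 0.9284), with a signal of 27.5 against 4.02, 4.39 and 4.33 intensity units in replicates 1, 3 and 4. Scn8a was high in replicate 1 (ratio 0.8634), with a signal of 20.5 against 12.4, 15.1 and 13.9 intensity units.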

How the results depend on the processing

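The count of 31 detected channel genes rose to 60 with the flag for a positive and significant signal and to 58 with the negative control threshold, where named genes rose to 61.7% and 61.5%; the cause was not tested. It was 33 on at least 3 arrays, 41 on at least 1, 21 with every probe required, 31 with outlier flags ignored, and 31 to 32 when 1 replicate was left out, against 52.7% to 53.0% of named genes. The median SD of the detected channel genes ran from 0.136 with normexp to 0.200 with scaling over all probes, against 0.130 and 0.155 for all detected named genes, and from 0.132 to 0.207 when 1 replicate was left out, against 0.115 to 0.159. Of 49 genes described, normexp, which adds an offset to every signal, moved the level of 40 by more than the SD between replicates (Clcn4 to -4.45 from -6.24) and the span of 28 by over 1.5 times. Averaging probes moved the levels of 5, with Kcnk6 at -2.25 in place of -0.62, Kcne2 at -4.48 in place of -3.29 and Kcnn4 at -4.71 in place of -3.92. Scaling over all probes or to the median raised all 49 levels by a near constant amount. Leaving out a replicate moved no level, but moved the span of 19, 16, 9 and 5 genes without replicates 1 to 4. Ignoring outlier flags moved the span of Scn2b to 0.43 from 0.76. Naming probes through a gene name column was not run, because the files used here hold no such column, and normexp used the median spot signal. No paired analysis was possible because there is 1 group. Signal over background limits the weak genes most.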
